A study of Homo sapiens with 10 samples.

Results

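The cyclins and cyclin-dependent kinases (CDKs) described here are CDK1, CDK2, CDK4, CDK6, CCNA2, CCNB1, CCND2, CCND3, CCNG1 and CCNI. They were followed through the RNA bases that tethered deaminases edited inside their GENCODE gene bodies on the GRCh38 build. Of these 10 genes, 8 held at least 1 listed site, and CCNB1 and CCND2 held none. Their 69 sites were among 34837 listed sites in 10312 genes. APOBEC1 gave 53 of the sites, in 6 of the genes, and ADARcd gave 16, also in 6 genes.

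HUDEP-2 cells are an immortalised human erythroid progenitor line. They carried a doxycycline-inducible (TRE) construct in which FAM46C, a non-canonical poly(A) polymerase with the gene symbol TENT5C, was joined through a linker to a deaminase. APOBEC1 turns C into U, read as T, and ADARcd, the catalytic domain of ADAR, turns A into inosine, read as G, so an edited base marks RNA that the fusion protein came near. The control for each deaminase was GFP joined to it by a 7 aa linker. FAM46C-APOBEC1 had linkers of 7, 27, 52 or 74 aa, and FAM46C-ADARcd had linkers of 7, 27, 47 or 74 aa. All 10 libraries received doxycycline, for 48 h according to the sample labels and 24 h according to the series text. Each construct had 1 library, so no difference below has a replicate check, and every test compares 2 libraries rather than 2 conditions. Only the 7 aa pair is matched in linker. With a longer linker, bait and linker differ together.

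Cyclins bind and activate CDKs, which phosphorylate proteins such as RB to drive cells through the division cycle. D-type cyclins act with CDK4 and CDK6 in G1, cyclin A with CDK2 in S phase, and cyclin B with CDK1 at mitosis. Erythroid progenitors divide rapidly and leave the cycle as they mature, with a known role for D-type cyclins and CDK6 in timing that exit. Cyclin G1, a p53 target, and cyclin I are less typical cyclins that are not known to drive a set phase of the cycle.

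Sites of CDK4, CCNI, CCNG1 and CDK1 are shown with 10 bases on either side, 5′ to 3′ on the gene's strand. Bases are in lower case, with the edited base in capitals. The windows are read from GENCODE 29 transcripts on GRCh38. Of the sites shown, only the first pair was called in a site test. The first pair holds the site of CDK4 at chr12:57748373-57748393, in the 3′ UTR, and the single ADARcd site of CCNI at chr4:77058517-77058537, in the coding sequence.
CDK4, APOBEC1: gccttaatgaCattcccctcc
CCNI, ADARcd: tcttttggatAggtttttagc
The second pair lies in the CCNI 3′ UTR, at chr4:77047796-77047816 and chr4:77047511-77047531. The second came to be listed through its edited reads in the GFP library alone. Editing at the first site was above GFP in 3 of the 4 FAM46C libraries, and at the second it was seen with GFP and at 0 in all 4 of them.
CCNI, APOBEC1, upstream site: agttactgaaCtttatgcatg
CCNI, APOBEC1, downstream site: gcattttcgaCatttgtataa
The last 4 windows are the 2 CCNG1 sites with the most edited reads in the GFP library, at chr5:163444483-163444503 and chr5:163444517-163444537, and 2 CDK1 sites, at chr10:60794079-60794099 and chr10:60794168-60794188. They show the A before and the T after the edited C that most of the sites share.
CCNG1, APOBEC1, first site: taagttcagaCtagattgaac
CCNG1, APOBEC1, second site: ttactacagaCtgtttttaag
CDK1, APOBEC1, first site: ttcagctgtaCttcgtcttct
CDK1, APOBEC1, second site: gtaggtctcaCtgtaacaact

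The choice of genes did not use the base context of their APOBEC1 sites. For the base before the edited C, this context was close to that of all 3′ UTR sites. CCNI held 23 of the 53 sites and CCNG1 held 17, so the shares below mostly describe CCNI and CCNG1. Sites within a gene are not independent, and no difference from all sites was tested. Of the 53 sites, 52 lay in a 3′ UTR (98.1%), against 62.5% of all 18069 APOBEC1 sites. An A stood before the edited C at 43 of the 53 (81.1%), against 78.0% of all 3′ UTR sites, and an A or a T stood before it at 52 of them (98.1%), against 97.2%. A T followed the C at 35 of 53 (66.0%), against 51.1% of all 3′ UTR sites. The 21 bases around the site had a median A and T content of 71.4%, against 66.7% around all 3′ UTR sites.

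In the 3′ UTR of CCNI, 42 of 177 C bases follow an A (23.7%), while 17 of its 23 listed sites do (73.9%). In the 3′ UTR of CCNG1, 79 of 223 C bases follow an A (35.4%), while 15 of its 16 listed 3′ UTR sites do (93.8%). The listed sites of both genes were thus mostly the minority of C bases that stand after an A. The 16 ADARcd sites were unlike these: 10 lay in introns, all in CCND3, and 4 in a 3′ UTR.

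APOBEC1 libraries held 627250 to 748913 reads over the listed sites, with a median of 30 to 36 per site. ADARcd libraries held 479108 reads with GFP, 522608 with FAM46C at 7 aa, and 160157 to 203555 with the longer linkers, where the median was 1 or 2 reads per site. The highest count at any site lay between 238 and 314 in each library, so read numbers at strongly covered sites do not measure RNA abundance. Edited reads made up 2.91% of APOBEC1 reads with GFP and 4.18%, 3.05%, 2.93% and 1.24% with FAM46C at 7, 27, 52 and 74 aa. The 74 aa APOBEC1 library was therefore low over all genes, with an odds ratio of 0.417 to GFP. In the ADARcd libraries FAM46C stood below GFP over all reads, with odds ratios of 0.695 to 0.834. Among erythroid marker genes, HBB and ALAS2 held listed sites, while GATA1, KLF1, HBA1 and HBA2 held none. The tables list a site only where at least 1 library has 2 or more edited reads, so a gene without sites may still be expressed. Of all APOBEC1 sites 22.0% had 2 or more in GFP alone and 66.9% in FAM46C libraries alone. At such a site the side without them has at most 1 edited read a library by that choice, so a difference summed over such sites is set in part by how they were listed. The CDK4 APOBEC1 site and the CCNI ADARcd site had 2 or more edited reads with GFP and with FAM46C.

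For each gene, edited reads and all reads were added over its sites, and the share of edited reads is called the editing level. Levels carry 95% Wilson intervals, and differences from GFP, in percentage points, carry 95% Newcombe intervals. Both cover counting error only, since reads have no molecular identifiers. Calls rest on Fisher's exact test, two-sided, with p-values adjusted after Benjamini-Hochberg over all genes with reads in all 5 libraries of the deaminase (6192 for APOBEC1, 4772 for ADARcd). A gene is called at an adjusted p under 0.05. A second test asked whether a gene differed by more than its library as a whole, with the overall odds ratio of the library to GFP as the null value (Fisher's noncentral test, also exact).

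**Figure D1:**
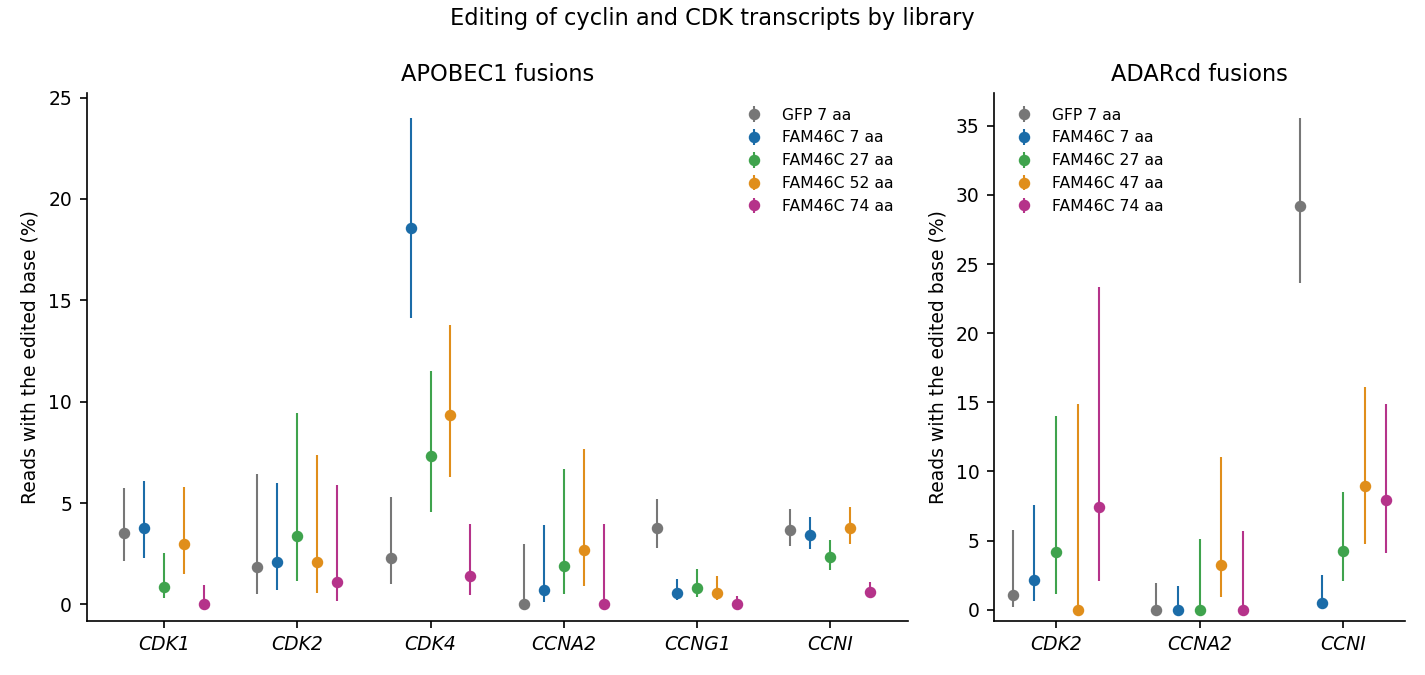
Editing level (percent of reads with the edited base) of each gene by library, with 95% Wilson intervals as bars. The left panel shows APOBEC1 fusions and the right panel ADARcd fusions, for genes with at least 20 reads in every library; CDK4 with 7 aa FAM46C-APOBEC1 (18.6%) and CCNI with GFP-ADARcd (29.2%) stand above the other values of their panels.

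CDK4, the kinase that D-type cyclins activate in G1, had higher editing with the 7 aa FAM46C fusion than with GFP. Its single APOBEC1 site, at chr12:57748383, lies in the 3′ UTR (exon 8 of 8), 142 nt after the stop codon and 656 nt before the transcript end. The edited base was found in 5 of 217 reads with GFP (2.30%), 44 of 237 with FAM46C at 7 aa (18.6%, 14.1 to 24.0), 16 of 219 at 27 aa (7.31%), 22 of 235 at 52 aa (9.36%) and 3 of 217 at 74 aa (1.38%). The 7 aa library was the highest and its interval lay apart from that of GFP, while the 74 aa library lay within the interval of GFP (0.988 to 5.28).

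The 7 aa difference was +16.3 points (10.9 to 21.9) and passed (Fisher's exact test, Benjamini-Hochberg adjusted p = 9.24e-07). In that comparison 4.15% of all genes were called higher, and of the 6 cyclin and CDK genes tested CDK4 was the 1 called higher. As a single site it also passed (Fisher's exact test, Benjamini-Hochberg adjusted p = 6.00e-06), where 0.458% of all sites were called higher. CDK4 also passed the exact test against the overall odds ratio, 1.45 for this library, at an adjusted p of 0.000397.

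With the 27 aa linker the CDK4 difference was +5.0 points (0.944 to 9.43), and with 52 aa it was +7.06 points (2.76 to 11.7). Neither passed the same Fisher's exact test after Benjamini-Hochberg adjustment (adjusted p = 0.333 and 0.0597). At 74 aa it was -0.92 points (-4.03 to 1.99), with an adjusted p of 1 in that test. The authors' deposited table lists this site, with a p of 3.96e-09 at 7 aa, 0.0122 at 27 aa and 0.00111 at 52 aa. The body of TSPAN31 also spans the site. The labels do not state strand, so reads of the 2 genes cannot be told apart, and on the TSPAN31 strand the base is a G rather than a C.

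CDK1, the mitotic kinase, held 7 APOBEC1 sites, all in its 3′ UTR (exon 8 of 8) and between 270 and 817 nt before the transcript end. Edited reads numbered 15 of 426 with GFP (3.52%), 15 of 400 at 7 aa (3.75%), 3 of 342 at 27 aa (0.877%), 8 of 268 at 52 aa (2.99%) and 0 of 397 at 74 aa, which allows a level of up to 0.756%. The 7 and 52 aa libraries lay within the interval of GFP (2.15 to 5.73).

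Only the 74 aa library was called against GFP for CDK1, lower by 3.52 points (-5.73 to -1.84; Fisher's exact test, Benjamini-Hochberg adjusted p = 0.00252). In that comparison 5.18% of all genes were called lower, and of the 6 cyclin and CDK genes tested CDK1, CCNG1 and CCNI were. CDK1 missed the threshold against the overall odds ratio of that library (Fisher's noncentral exact test, adjusted p = 0.284), and also when only the 2 of its sites at least 150 nt apart were counted (adjusted p = 0.729). Of the 7 sites 3 had 2 or more edited reads on both sides, 2 with GFP alone and 2 with FAM46C alone. Over the first 3 the 74 aa call held (Fisher's exact test, Benjamini-Hochberg adjusted p = 0.0408). The 74 aa library had 0 edited reads at all 7 sites, so those 3 were kept through GFP and other linkers. That choice favours the GFP side, and nothing is read from this p-value. At 27 aa the CDK1 difference was -2.64 points (-4.93 to -0.480), with an adjusted p of 0.271 in Fisher's exact test.

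CDK2, the S phase kinase, had 0 to 3 edited reads in every library. Its 3 APOBEC1 sites, all in the 3′ UTR, gave 2 edited of 109 reads with GFP (1.83%) and 3 of 143, 3 of 89, 2 of 95 and 1 of 92 with FAM46C at 7, 27, 52 and 74 aa (2.10%, 3.37%, 2.11% and 1.09%). Its ADARcd site, at chr12:55971928 in the same 3′ UTR, gave 1 of 94 with GFP (1.06%) and 2 of 92, 2 of 48, 0 of 22 and 2 of 27 with FAM46C at 7, 27, 47 and 74 aa (2.17%, 4.17%, 0% and 7.41%, the last with an interval of 2.06 to 23.4). CDK2 was called in none of the 8 comparisons with GFP. The intervals were wide, with a 7 aa difference of 0.26 points (-4.55 to 4.37) for APOBEC1 and 1.11 points (-3.86 to 6.59) for ADARcd. The body of PMEL also spans all of these sites.

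The ADARcd sites of CDK4 and of CDK6, the other partner of D-type cyclins, had few reads. CDK4 had 2 such sites, with 1 edited of 23 reads with GFP and 0 of 15, 2 of 13, 2 of 12 and 0 of 6 with FAM46C at 7, 27, 47 and 74 aa. One of them, at chr12:57755288, also lies in the 5′ UTR of MARCH9. CDK6 had 1 site in its 3′ UTR, at chr7:92614730, 410 nt after the stop codon, with 0 edited of 43 reads with GFP (up to 6.98%) and 2 of 37 at 7 aa. The 27, 47 and 74 aa libraries held 2, 5 and 8 reads there, none of them edited. Neither gene was called, and the intervals were wide: at 7 aa the difference was -4.35 points (-21.0 to 16.4) for CDK4 and +5.41 points (-3.68 to 17.7) for CDK6.

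CCNI, which encodes cyclin I, held the most sites of any of these genes. Its single ADARcd site, at chr4:77058527 in the coding sequence of exon 3 of 7, was edited far more with GFP than with any FAM46C fusion. The edited base was in 64 of 219 reads with GFP (29.2%, 23.6 to 35.6), 1 of 221 at 7 aa (0.452%), 7 of 165 at 27 aa (4.24%), 9 of 101 at 47 aa (8.91%) and 8 of 101 at 74 aa (7.92%). The GFP interval did not overlap that of any fusion, and the 7 aa library was the lowest.

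Relative to GFP, the level of the CCNI site changed by -28.8 points with the 7 aa linker (-35.1 to -22.8), by -25.0 with 27 aa (-31.7 to -17.9), by -20.3 with 47 aa (-27.9 to -11.2) and by -21.3 with 74 aa (-28.7 to -12.4). All 4 differences passed (Fisher's exact test, Benjamini-Hochberg adjusted p = 4.76e-18, 6.49e-08, 0.0083 and 0.00665). In these comparisons 3.14%, 0.419%, 0.377% and 0.189% of all genes were called lower. CCNI was the 1 gene called in each, of the 5 cyclin and CDK genes tested. As a single site it passed too (Fisher's exact test, Benjamini-Hochberg adjusted p = 1.58e-17, 7.07e-08, 0.0144 and 0.0127), where 1.42%, 0.269%, 0.216% and 0.0656% of all sites were called lower. In the exact test against the overall odds ratio the 47 aa call was lost (adjusted p = 0.0939) and the others passed (2.50e-13, 9.27e-06 and 0.0278).

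Of 4772 genes, 6 were called lower in all 4 ADARcd comparisons (0.126%), which share the GFP library. The others, chosen after their values were seen, were MCM4, QARS, TOMM20, STEAP1B and EEF1A1P6, and the last 2 share 1 site. Their GFP levels lay between 11.3% and 35.3%. No gene other than CCNI, of those tested with both deaminases, had the same calls as CCNI in all 8 comparisons.

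**Figure D2:**
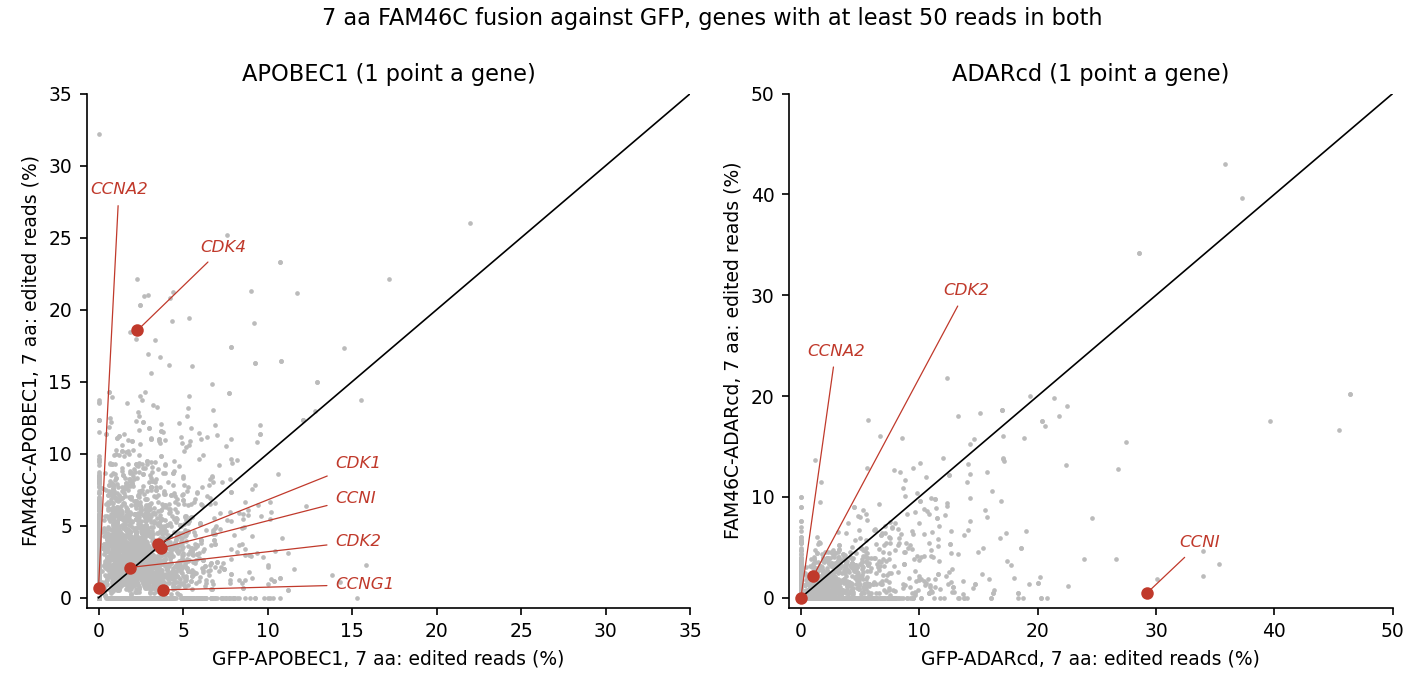
Editing level with the 7 aa FAM46C fusion (vertical, percent) against GFP (horizontal, percent) for genes with at least 50 reads in both libraries, 3221 genes for APOBEC1 and 2840 for ADARcd. Red points are cyclin and CDK genes and the line marks equal levels; 1 and 2 genes lie beyond the axes. CDK4 sits above the line on the left, CCNG1 below it, and CCNI lies near the lower edge on the right at 29.2% and 0.452%.

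With APOBEC1, CCNI held 23 sites, all in the 3′ UTR (exon 7 of 7), and its level over all of them was called lower than GFP at 74 aa alone. Edited reads numbered 60 of 1630 with GFP (3.68%, 2.87 to 4.71), 71 of 2065 at 7 aa (3.44%), 39 of 1673 at 27 aa (2.33%), 62 of 1637 at 52 aa (3.79%) and 11 of 1791 at 74 aa (0.614%). The 74 aa library was lower by 3.07 points (-4.13 to -2.12; Fisher's exact test, Benjamini-Hochberg adjusted p = 3.99e-08) but missed the threshold in the exact test against the overall odds ratio (adjusted p = 0.173). For 7, 27 and 52 aa the differences were -0.24 points (-1.49 to 0.951), -1.35 points (-2.55 to -0.183) and +0.11 points (-1.21 to 1.42), with adjusted p of 1, 0.346 and 1 in Fisher's exact test.

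The edited reads lay at different positions along the CCNI 3′ UTR, as did the way its sites were listed. The sites fell into stretches separated by at least 100 nt, a split made after the values were seen and so described without a test. In the stretch nearest the transcript end, 98 to 389 nt from it (10 sites), the level was 4.40% with GFP (3.04 to 6.33) and 1.22%, 1.46%, 2.05% and 0.132% with FAM46C at 7, 27, 52 and 74 aa. Of these 10 sites 4 had 2 or more edited reads with GFP alone, 3 with FAM46C alone and 3 on both sides.

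In the middle stretch, 602 to 653 nt from the end (6 sites), the levels were 4.97% with GFP and 5.69%, 4.03%, 7.26% and 1.38%. In the stretch farthest from the end, 768 to 923 nt (7 sites), they were 1.42% with GFP (0.688 to 2.90) and 4.13% (2.84 to 5.99), 2.02%, 3.45% and 0.574%. Of the 6 middle sites 2 were listed through FAM46C alone and 4 through both sides, and of the 7 far sites 6 through FAM46C alone. The levels by stretch are therefore set in part by the listing and are not read as a difference between stretches. Over the 8 CCNI sites listed through both sides, the 74 aa level was 1.26% against 6.98% with GFP and stayed called (Fisher's exact test, Benjamini-Hochberg adjusted p = 6.35e-06). That choice required 2 or more edited reads with GFP but not at 74 aa, since any other linker could supply them. It favours the GFP side, so nothing is read from this p-value.

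**Figure D3:**
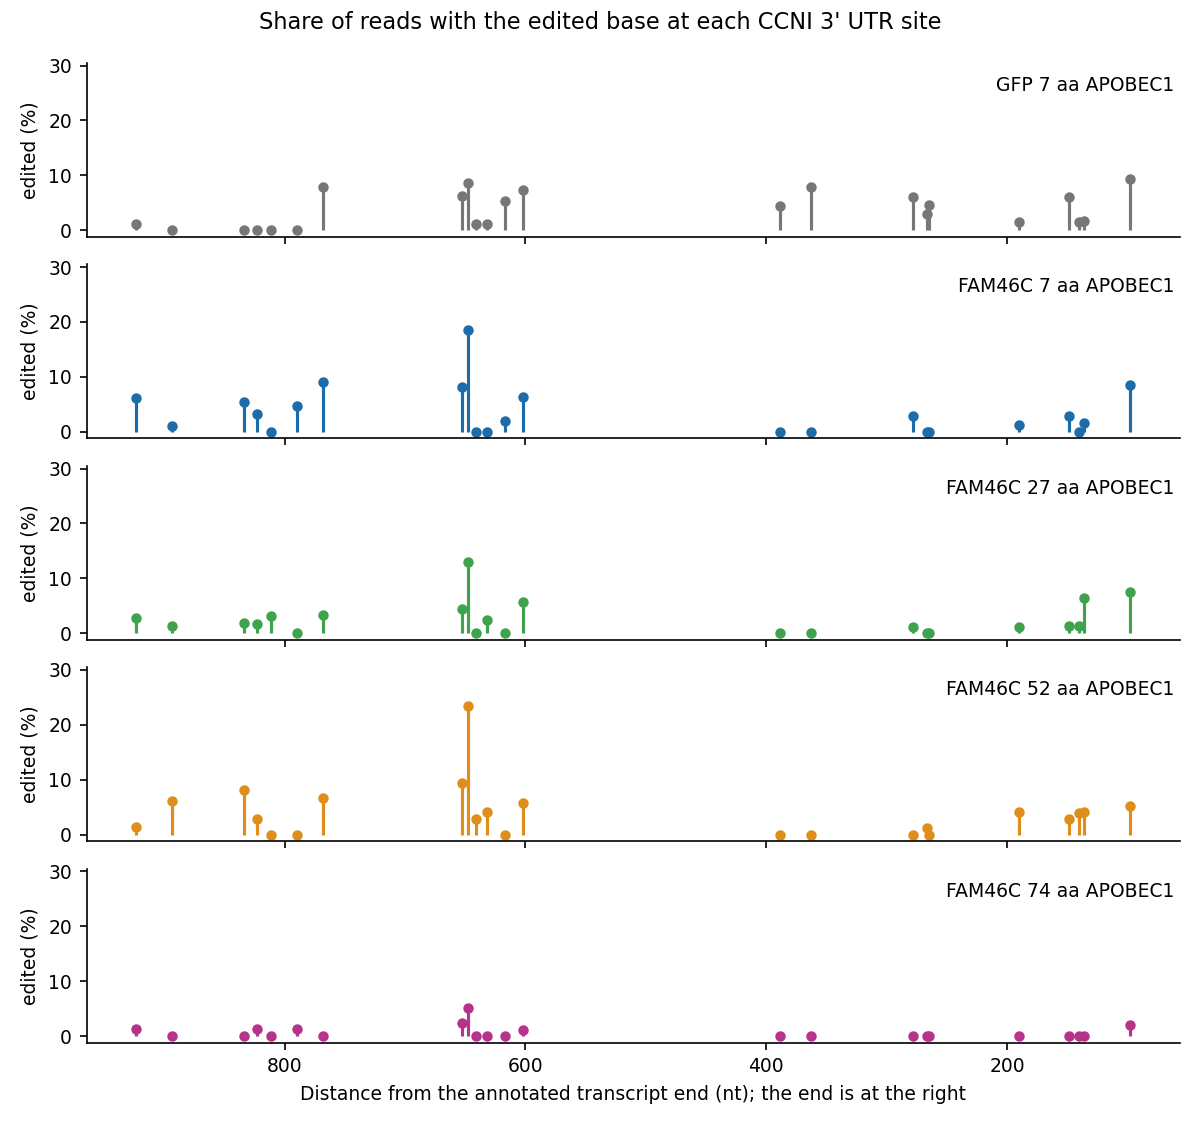
Percent of reads with the edited base at each of the 23 CCNI 3′ UTR sites, 1 row a library, against distance from the annotated transcript end in nt. The tallest line of the 7 and 52 aa FAM46C rows stands 648 nt from the end, at 18.6% and 23.4%. Between 265 and 389 nt the GFP row is edited where most FAM46C points lie at 0. That range was picked after the values were seen. It holds the 4 sites listed through GFP alone, where each fusion has at most 1 edited read by that choice.

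For 2 single sites, the second chosen after its values were seen and listed through GFP alone, the counts were as follows. At chr4:77047806, 648 nt from the end, the edited base was in 7 of 81 reads with GFP (8.64%), 18 of 97 at 7 aa (18.6%), 9 of 69 at 27 aa (13.0%), 15 of 64 at 52 aa (23.4%) and 4 of 78 at 74 aa (5.13%). At chr4:77047521, 363 nt from the end, it was in 5 of 63 reads with GFP (7.94%) and in none of 109, 82, 79 and 79 with FAM46C, which allows up to 2.75%, 3.66%, 3.80% and 3.80%. No CCNI site was called with APOBEC1 in Fisher's exact test after Benjamini-Hochberg adjustment over all sites with 10 reads in both libraries; at 7 aa the adjusted p was 0.981 for the first and 0.538 for the second. Of the 23 sites 9 were below GFP in all 4 fusions and 2 above it, against 26.2% and 4.01% of all APOBEC1 sites with 10 reads in every library. The authors' deposited table lists chr4:77047806 at 7 aa (p = 0.0449) and 52 aa (p = 0.0128), and chr4:77047992 and chr4:77048051 at 52 aa (p = 0.0388 and 0.0432). In the same order, Fisher's exact test here gave 0.082, 0.019, 0.0594 and 0.0432 before adjustment. The authors' values are not comparable with the adjusted ones above.

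CCNG1, which encodes cyclin G1, was listed mostly through GFP. It held 17 APOBEC1 sites, 16 in the 3′ UTR (exon 7 of 7) and 1 in the coding sequence, at chr5:163442129 in exon 5 of 7. Edited reads numbered 37 of 975 with GFP (3.79%, 2.77 to 5.19), 5 of 920 at 7 aa (0.543%), 6 of 741 at 27 aa (0.810%), 4 of 730 at 52 aa (0.548%) and 0 of 875 at 74 aa, which allows up to 0.343%. Of the 17 sites 14 had 2 or more edited reads in the GFP library alone (82.4%, against 22.0% of all APOBEC1 sites), 3 had them in FAM46C libraries alone and 0 on both sides.

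The CCNG1 level changed by -3.25 points with the 7 aa linker (-4.68 to -1.99), by -2.99 with 27 aa (-4.44 to -1.59), by -3.25 with 52 aa (-4.68 to -1.91) and by -3.79 with 74 aa (-5.19 to -2.68). These sums met the call rule in all 4 comparisons, as did those of 0.824%, 1.32% and 0.888% of all genes for a lower level at 7, 27 and 52 aa, and those of 0.42% of genes in all 4, which share the GFP library. Since the listing left each fusion at most 1 edited read at the 14 sites, the CCNG1 differences are given as a description and nothing is read from their p-values.

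The CCNG1 sums rest on many sites with few edited reads each. The 12 sites between 489 and 734 nt from the transcript end held 32 edited of 701 reads with GFP (4.56%) and 3 of 644, 2 of 496, 2 of 507 and 0 of 633 with FAM46C. At the site with the highest GFP level, chr5:163444527, the counts were 4 of 57 with GFP (7.02%), 1 of 57, 1 of 50, 0 of 36 and 0 of 59. One read can cover several such neighbours and then counts more than once. Counting only the 6 sites at least 150 nt apart, the differences were -2.65, -1.60, -1.93 and -2.65 points and none passed Fisher's exact test (adjusted p = 0.189, 1, 1 and 0.196).

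At 14 of the 17 CCNG1 sites the level was below GFP in all 4 fusions, against 26.2% of all sites. This count too describes how the sites were listed.

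**Figure D4:**
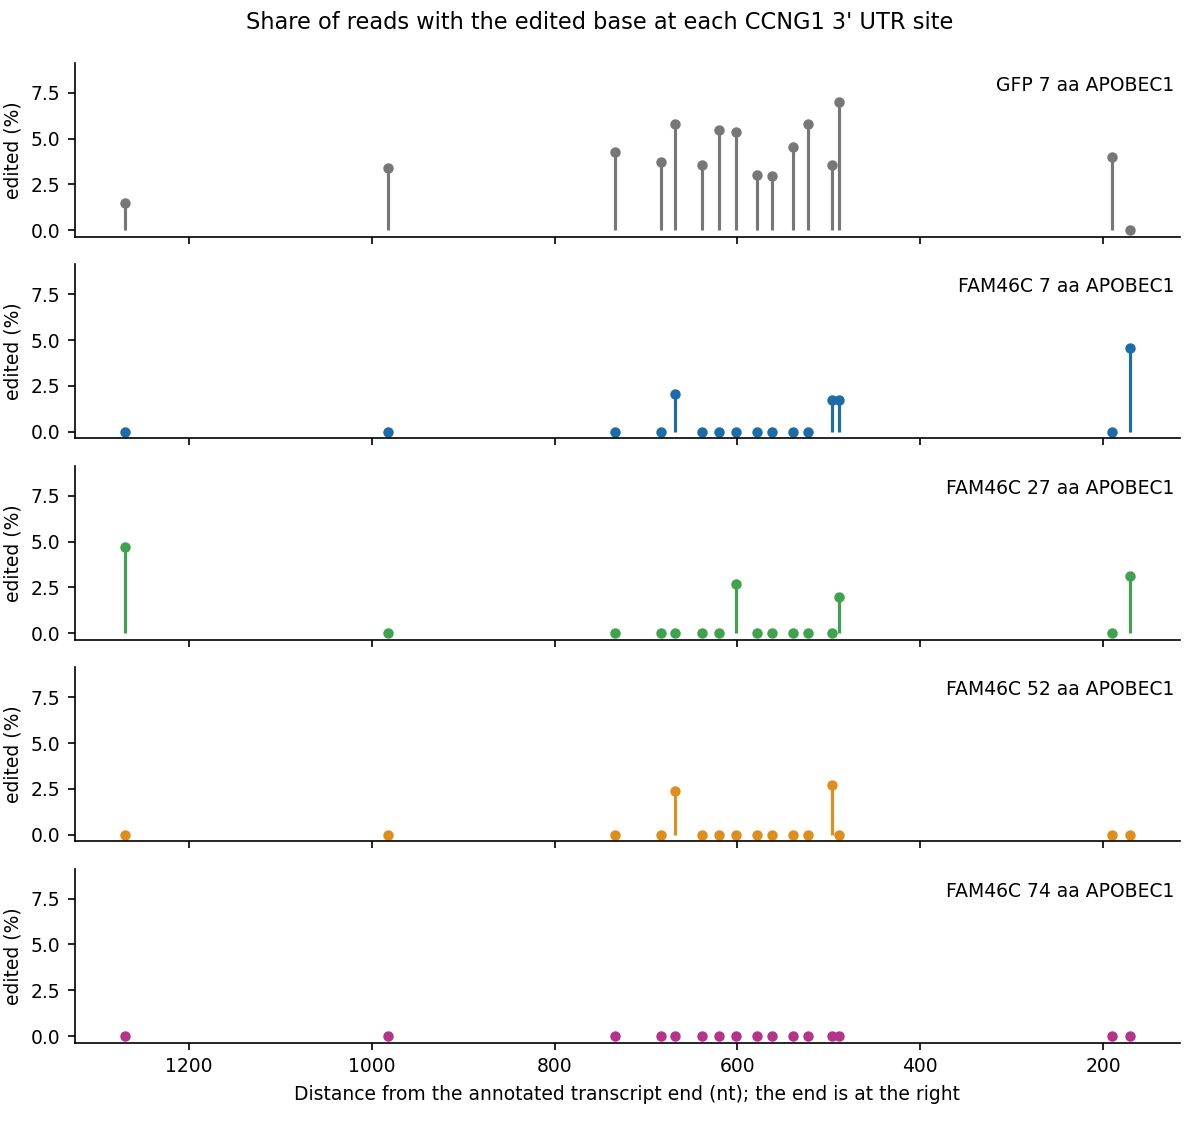
Percent of reads with the edited base at each of the 16 CCNG1 3′ UTR sites, 1 row a library, against distance from the annotated transcript end in nt. The GFP row is edited at all but 1 site, up to 7.02%, and the 74 aa FAM46C row is at 0 throughout. At the 14 sites listed through GFP alone, each fusion has at most 1 edited read by that choice.

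CCNA2, which encodes the S phase and G2 cyclin A2, was edited little in any library. Its 2 APOBEC1 sites, in the 3′ UTR (exon 8 of 8), gave 0 edited of 124 reads with GFP (up to 2.42%), 1 of 141 at 7 aa (0.709%), 2 of 105 at 27 aa (1.90%), 3 of 111 at 52 aa (2.70%) and 0 of 93 at 74 aa (up to 3.23%). Its ADARcd site, at chr4:121817215, was covered by 62 to 222 reads a library and had edited reads in 1 library alone, 2 of 62 at 47 aa (3.23%). None of these differences passed, and the 7 aa difference with APOBEC1 was 0.71 points (-2.35 to 3.91). The body of EXOSC9 also spans 1 of the APOBEC1 sites.

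CCND3, the D-type cyclin with a known part in erythroid division, had ADARcd sites only, all 10 of them in introns. They held 33 reads over the 5 libraries, at most 4 at a site in a library, and 30 of the reads carried the edited base. GFP had 12 edited of 15 reads and FAM46C at 7 aa 13 of 13, while the longer linkers had 1, 1 and 3 reads. No site had reads in all 5 libraries, so CCND3 was not tested. Whether these bases are edits or sequence variants of the cell line was not tested. CCND2, the other D-type cyclin followed here, and CCNB1, the mitotic cyclin, had no listed site for either deaminase.

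The shortest and longest FAM46C linkers were also compared with each other, 74 aa against 7 aa. With APOBEC1, CDK4 was lower by 17.2 points at 74 aa, CDK1 by 3.75 and CCNI by 2.82, and these 3 of 6 genes passed (Fisher's exact test, Benjamini-Hochberg adjusted p = 1.60e-08, 0.000982 and 1.79e-08). In that comparison 11.4% of all genes were called lower and 0% higher. None of the 3 passed the exact test against the overall odds ratio of these libraries, 0.287 (adjusted p = 0.212, 0.563 and 0.777). With ADARcd, CCNI was higher at 74 aa by 7.47 points (Fisher's exact test, Benjamini-Hochberg adjusted p = 0.029), where 2.14% of genes were called higher. It missed the threshold in the exact test against the overall odds ratio (adjusted p = 0.0749).

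Genes that work with these cyclins and CDKs were read from 6 lists of 111 genes. With APOBEC1, 60 of them could be tested, and 2 were called higher at 7 aa, 3 at 27 aa and 1 at 52 aa. Over all genes 4.15%, 1.65% and 1.07% were called higher in these comparisons. At 74 aa 4 of the 60 were called lower, against 5.18% of all genes. With ADARcd, 43 could be tested, and 1 was called lower at 7 aa, against 3.14% of all genes, and 1 higher at 27 aa, against 0.503%. These 12 calls fell on 8 genes. Against the overall odds ratio 5 of them passed, those of ANAPC5 at 27 and 52 aa, CCNH at 27 aa, CDKN2A at 27 aa and CDK2AP1 with ADARcd. No site of ANAPC5, CCNH or RB1 with APOBEC1, or of ANAPC1 or CDK2AP1 with ADARcd, had 2 or more edited reads on both sides. Their differences are therefore set in part by how the sites were listed, and nothing is read from their p-values. Of the 5 passing calls, only that of CDKN2A falls outside these.

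Among the CDK inhibitors and CDK-binding proteins, 11 of 20 genes were tested with APOBEC1. CDKN2A, which encodes the CDK4 and CDK6 inhibitor p16 and the protein ARF, stood at 10.8% of 1804 reads over 13 sites with GFP and at 16.4%, 15.4%, 12.7% and 6.54% with FAM46C at 7, 27, 52 and 74 aa. It rose at 7 and 27 aa and fell at 74 aa (Fisher's exact test, Benjamini-Hochberg adjusted p = 4.25e-05, 0.00218 and 0.000136). Its odds ratio to GFP was 1.62 at 7 aa and 0.578 at 74 aa, where the libraries as a whole stood at 1.45 and 0.417, and against those values neither call held (exact test, adjusted p = 0.752 and 0.237). CDK2AP1, which encodes a CDK2-binding protein, fell at 74 aa with APOBEC1, from 7.10% to 2.98% (Fisher's exact test, Benjamini-Hochberg adjusted p = 0.00117), with an odds ratio of 0.402, and was not called against the overall one (adjusted p = 1). With ADARcd its single site rose at 27 aa, from 0 of 81 reads to 8 of 34 (Fisher's exact test, Benjamini-Hochberg adjusted p = 0.00505). That site was listed through FAM46C alone, so nothing is read from its p-value.

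Among the RB and E2F proteins, 9 of 18 genes were tested with APOBEC1. E2F4, a repressive E2F factor, rose at 7 aa from 1.85% to 6.93% (Fisher's exact test, Benjamini-Hochberg adjusted p = 0.00384), and that call was lost against the overall odds ratio and over its 2 sites listed through both sides (adjusted p = 0.119 and 0.731). RB1, the pocket protein that CDK4 and CDK6 phosphorylate, fell at 74 aa from 8.88% to 0.581%, and TFDP1, the partner of E2F factors, from 4.47% to 1.39% (Fisher's exact test, Benjamini-Hochberg adjusted p = 0.0059 and 0.00668). Both calls were lost against the overall odds ratio of the 74 aa library (exact test, adjusted p = 0.528 and 1). The median difference from GFP at 74 aa was -1.69 points over these 9 genes, and over the other lists it ran from -1.27 points for other CDKs to -0.14 for ubiquitin ligases, against -0.34 over all genes.

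Among ubiquitin ligase genes that degrade cyclins, 21 of 25 were tested with APOBEC1 and 8 with ADARcd. ANAPC5, a subunit of the anaphase-promoting complex, was at 0 of 177 reads with GFP (up to 1.69%). With the 27 and 52 aa linkers it stood at 6.69% and 5.10% (Fisher's exact test, Benjamini-Hochberg adjusted p = 0.00833 and 0.0469). All 5 of its sites were listed through FAM46C alone, so nothing is read from these p-values. ANAPC1 fell with ADARcd at 7 aa, from 10 of 352 reads to 0 of 382 (Fisher's exact test, Benjamini-Hochberg adjusted p = 0.0238), a call lost against the overall odds ratio (adjusted p = 0.219). Of 7 other cyclins tested with APOBEC1, CCNH, the partner of CDK7, rose at 27 aa from 0 of 201 reads to 9 of 165 (Fisher's exact test, Benjamini-Hochberg adjusted p = 0.0265). All 6 CCNH sites were listed through FAM46C alone, so nothing is read from this p-value either. None of the 6 other CDKs tested with APOBEC1, or of the 6 phosphatases and kinases that switch CDKs on and off, was called in any of its comparisons.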

How the data were processed

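RNA editing was read in 10 HUDEP-2 libraries of poly(A) RNA, 1 per construct, grouped by the labels' construct names. Tools listed in the submitters' processing notes are Picard 2.27.1, SAMtools 1.18 and HISAT2 2.2.1, without their order or role, and the build is GRCh38. The sources used here do not say how the authors chose sites. The authors deposited, per library, raw counts of reads with the reference base and with the edited base at each site, not normalised. They also deposited, per fusion, a table of sites with a p-value each, and 48 read columns in these tables that match no single label were not used. In both deaminases every listed site had at least 2 edited reads in 1 library. Sites with 2 records (2 positions) were left out of the APOBEC1 tables.

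Sites were placed in GENCODE 29 gene bodies, and a site counts for each gene that spans it. Gene sums use sites that were read at least 1 time in each of the 5 libraries sharing a deaminase, and site tests use sites with at least 10 reads in both libraries. Fisher's exact test (scipy 1.17.1, two-sided) with Benjamini-Hochberg adjustment over all genes or sites was the main test. It was checked on simulated data with independent reads, without a listing rule, reads shared between sites or variation between libraries. The check therefore cannot show how these affect the calls. A noncentral version took the overall odds ratio of the 2 libraries as its null value. A count of 0 edited reads is given with the level that 3 counts allow.

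The genes, the lists and the tests were chosen with earlier results of these data known. All 10 genes are described. Sites are named where they were called or were among the 3 with the most edited reads of their gene, and others were chosen after their values were seen. From the pathway lists the 8 genes with the most calls are named. Alternatives added after seeing the data were sites at least 150 nt apart, the odds ratio at sites covered in all 5 libraries, leaving out each gene's most edited site, and sites with 2 or more edited reads in GFP and in a fusion. The full erythroid marker list is not reported here.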

Additional observations from a re-analysis of the deposited data

How the results depend on the processing

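No paired analysis was possible because each construct had 1 library. The 7 APOBEC1 gene calls among cyclins and CDKs became 2 with sites at least 150 nt apart, namely CDK4 at 7 aa and CCNI at 74 aa, became 4 with only sites that had 2 or more edited reads in GFP and in a fusion, and numbered 5 to 7 under the other alternatives. The 4 at these sites were CDK1 and CCNI with the 74 aa linker and CDK4 with both the 7 and the 52 aa linker. CCNG1 had no such site and gave 4 of the 7. The choice required edited reads with GFP but not at 74 aa, so it cannot free the CDK1 and CCNI calls from the listing. The CDK4 counts were unchanged by it. Its adjusted p at 52 aa went from 0.0597 to 0.0278 (Fisher's exact test) only because the adjustment ran over fewer genes. The CDK4 site drops out where only sites in 1 gene body are used. The 4 ADARcd gene calls, all CCNI, numbered 3 against the odds ratio of all reads and 4 under each other alternative. With 1 ADARcd site, the CCNI counts were the same under every choice of sites, so those alternatives could not test these calls. The 4 calls of 74 aa against 7 aa became 0 against the odds ratio of all reads and 0 against that of sites covered in all 5 libraries, and numbered 3 or 4 otherwise. The 4 ADARcd site calls became 0 in a one-sided test for a higher share, which cannot call a lower one. The 12 pathway calls became 5 against the odds ratio of all reads, 6 with sites edited on both sides and 11 with every listed site. Over 139 alternative values for single genes, 119 kept their side of the threshold, 19 lost it, 1 gained it and none changed sign. Many of the 119 repeat the main counts, since CDK4 with APOBEC1 and CCNI with ADARcd have 1 site each. CCNG1 also kept its 17 sites under the filters on reads and on gene bodies. The tally therefore does not measure how firm the calls are. The overall ADARcd odds ratio to GFP depended on the sites used: over all reads it was 0.695, 0.810, 0.734 and 0.834 at 7, 27, 47 and 74 aa, and at sites covered in all 5 libraries 0.518, 1.14, 1.05 and 1.23. With the second set the 47 aa CCNI call passed (Fisher's noncentral test, adjusted p = 0.00497). Depth limits the ADARcd values of CDK4 and CDK6, which rest on 2 to 43 reads a library.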
